A study of Gallus gallus with 12 samples.

Results

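The cytoplasmic ribosomal protein genes encode the protein parts of the ribosome, the particle that translates messenger RNA in the cytoplasm. They were taken here as every gene of the count tables whose symbol was RPL or RPS followed by a digit, together with RPLP0, RPLP1, RPLP2 and RPSA. The RPS6K kinases and symbols ending in L and a digit were left out. The rule found 72 of 23726 listed genes, 41 with large-subunit and 31 with small-subunit names. It also caught 2 genes that duplicate a family member, RPL3L and RPS27L, and 1 gene that encodes a binding partner of a ribosomal protein, RPS19BP1. It left out RPL7L1, RPL22L1 and RPL26L1, as well as FAU, which encodes a ribosomal protein fused to a ubiquitin-like protein. RPL26L1 was left out for the ending of its name alone; over all cells it had 2036 ± 32.7 counts per 1000000 UMIs (CPM) at embryonic day 18 and 4160 ± 82.7 at embryonic day 12 (SD, n = 4 libraries each).

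A ribosome holds most of its proteins in single copy, built around ribosomal RNA, and cells keep the messenger RNAs of these proteins in proportion to one another. In vertebrates these messenger RNAs begin with a terminal oligopyrimidine tract, through which nutrient and growth factor signalling sets their translation as a group. Dividing and growing cells are known for a large pool of these messenger RNAs, while the retina turns, in the stages studied here, from progenitors and young neurons to neurons and glia near maturity.

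The study recorded RNA of single cells from embryonic chick retina with 12 droplet libraries, in which every captured transcript is counted by its unique molecular identifier (UMI). They were 4 of whole retina at embryonic day 18 (E18), 2 of dorsal and 2 of ventral retina at E16, and 4 of whole retina at E12. All embryos came from pathogen-free chicken eggs with no genetic change or treatment named, and each retina was freed of pigment epithelium and dissociated with papain. The E16 cells were also enriched for retinal ganglion cells (RGCs, the output neurons of the retina) with a Thy-1 antibody. The stage of the E16 libraries follows their titles, since another label field gives E18 for them. Whether the libraries of a group stem from different embryos is not labelled, so p-values describe only how far libraries spread, and stage cannot be told apart from anything else that differed between the library sets.

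The tables held 95805 cell barcodes, with 16436527 to 16967777 UMIs per E18 library, 1737033 and 2886101 per dorsal library, 15237958 and 13829514 per ventral library, and 25226502 to 27655687 per E12 library. The 2 dorsal libraries shared 28 barcodes, where 1.76 would be shared by chance. Cells were grouped into clusters with the ribosomal protein genes left out, and clusters were named from markers of retinal cell classes, so each class name ends in "-like". The E12 photoreceptor-like class was a single cluster of 499 cells in which 5 of 11 markers, ARR3, PDE6C, GUCA1A and TULP1 among them, had no UMI. Its name therefore rests on the other 6, and the markers summed to 22091 to 23407 CPM in E18 and 2178 to 2329 CPM in E12 photoreceptor-like cells. The E12 Muller glia-like class was 1 cluster too, of 1875 cells. VIM, a marker of Muller glia, averaged 1515 CPM there, against 6029 CPM in E18 Muller glia-like cells. How far this E12 class holds progenitors in place of glia was not tested. CPM is the count of a gene per 1000000 UMIs summed over the cells of a class in a library, and fold changes come from edgeR's quasi-likelihood test with TMM scaling (trimmed mean of M values).

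Ribosomal protein genes made up a smaller part of the RNA at E18 than at E12 in each of the 6 classes found at both stages. Their share of all UMIs in E18 photoreceptor-like cells was 15.4%, 15.3%, 15.1% and 15.2%, against 36.9%, 37.7%, 36.7% and 37.4% in the E12 libraries. The mean share was 15.2% ± 0.17 at E18 and 37.2% ± 0.45 at E12 (SD, n = 4 libraries each, here and below). The difference of 21.9 points, 2.44-fold, was the largest among the classes in points. It depended on the class assignment: with each cell classed from its own marker counts, an alternative added after the data were seen, photoreceptor-like cells had 14.8% at E18 and 23.1% at E12. That difference of -8.25 points was smaller than those of RGC-like (-12.5) and amacrine-like cells (-10.2) under the same assignment. In the main assignment the E12 photoreceptor-like class was 1 cluster, while the E18 class held 6 clusters with shares from 10.7% to 24.2%. The part of this makeup in the photoreceptor-like difference was not tested. In RGC-like cells the share was 8.61% ± 0.079 at E18 and 21.8% ± 0.30 at E12, which is 2.53-fold lower at E18. The E18 RGC-like libraries lay between 8.52% and 8.70% and the E12 libraries between 21.3% and 21.99%.

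The interneurons differed less between the stages than RGC-like cells. Amacrine-like cells, the inhibitory neurons of the inner retina, had 9.23% ± 0.064 at E18 and 19.7% ± 0.13 at E12, a 2.13-fold lower share. Horizontal cell-like cells, the inhibitory neurons of the outer retina, had 12.3% ± 0.34 and 23.1% ± 0.22, a 1.87-fold lower share at E18. Bipolar-like cells, which relay photoreceptor signals, had 9.33% ± 0.055 and 16.002% ± 0.16, a 1.71-fold lower share at E18. Muller glia-like cells, the radial glia of the retina, differed least, with 16.1% ± 0.23 at E18 and 21.0% ± 0.17 at E12, or 1.31-fold. Their difference was -4.93 points over all cells and -2.97 points in cells of 1500 to 3000 UMIs. No E18 library overlapped an E12 library in any class. Since these shares are scores over chosen genes, no test was made on them.

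**Figure D1:**
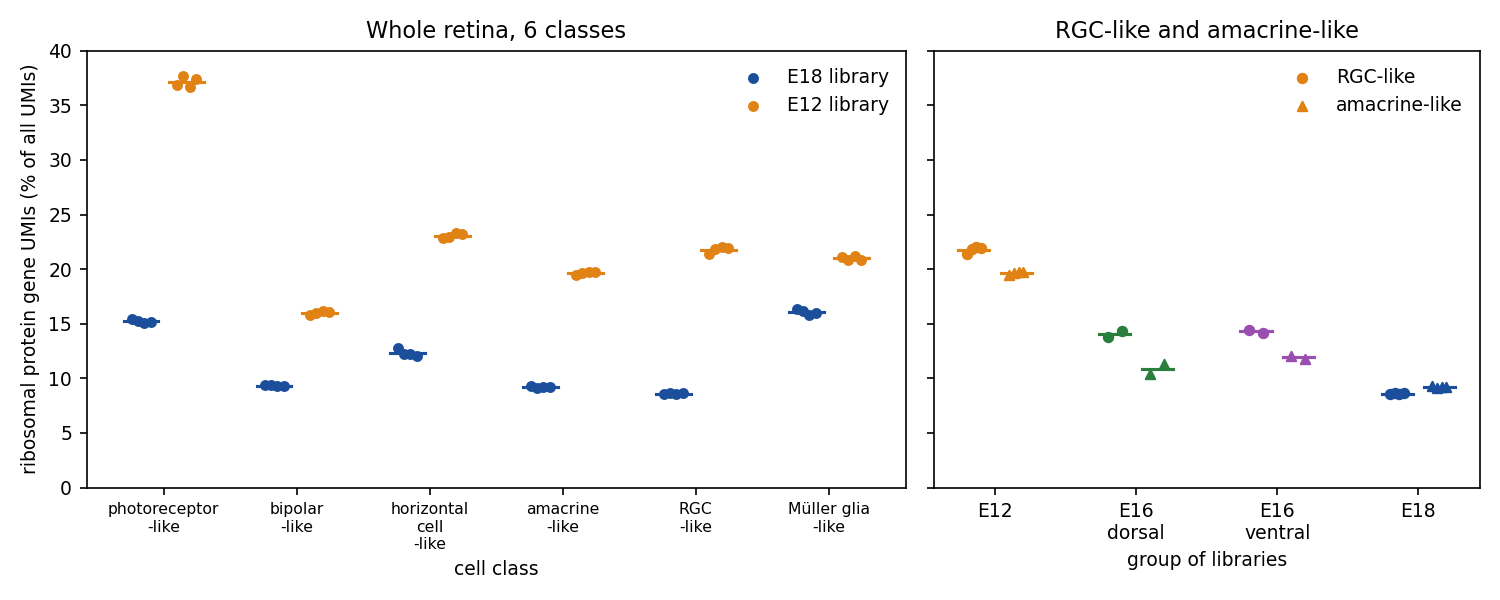
Share of all UMIs that fell on ribosomal protein genes, in percent, for each library (points) with the group mean (bars), in 6 classes at E18 and E12 on the left and in RGC-like and amacrine-like cells over all groups on the right. E18 libraries lie below E12 libraries in every class, with the widest gap in photoreceptor-like cells (15.2% against 37.2%) and the narrowest in Muller glia-like cells (16.1% against 21.0%). The photoreceptor-like gap was 14.8% against 23.1% with each cell classed on its own. The E12 photoreceptor-like class was 1 cluster and the E18 class 6 clusters.

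The order of the classes also differed between stages. At E18 the lowest shares were in RGC-like cells (8.61%), then amacrine-like (9.23%) and bipolar-like cells (9.33%), whose libraries lay from 9.14% to 9.29% and from 9.28% to 9.39% and so overlapped narrowly. Horizontal cell-like cells followed with 12.3%, photoreceptor-like cells with 15.2% and Muller glia-like cells with 16.1%. The highest E18 share, 20.9% ± 0.67, belonged to oligodendrocyte-like cells, a class of 150 cells with no counterpart at E12. At E12 the lowest share was that of bipolar-like cells (16.002%). Muller glia-like (21.0%), cycling progenitor-like (21.6% ± 0.26) and RGC-like cells (21.8%) stood close together there, with ranges from 20.8% to 21.2%, from 21.3% to 21.9% and from 21.3% to 21.99%, so that progenitor-like and RGC-like libraries overlapped.

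Depth per cell did not run in 1 direction with the share. The median UMIs per cell of photoreceptor-like cells were 1136 to 1211.5 at E18 and 1436 to 1523 at E12. Those of RGC-like cells were 5051 to 5719 at E18 and 2279 to 2468 at E12. Within E18 RGC-like cells the share was 4.10% below 1500 UMIs and 8.99% at 5000 UMIs or more, while E18 Muller glia-like cells had 17.7% and 14.7% in the same depth classes. The part of depth in the stage differences was not tested beyond the depth window given under the processing alternatives, in which the lower share at E18 held in all 6 classes. The balance of the subunits stayed within narrow bounds. The ratio of large-subunit to small-subunit UMIs was between 1.19 and 1.32 in every class and stage.

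Clusters within a class differed as well. Of the 6 photoreceptor-like clusters at E18, those led by PRDM1 and by ARHGAP18, RXRG and INHBB had shares of 23.6% ± 0.34 and 24.2% ± 0.15. The other 4 had between 10.7% ± 0.17, in the cluster led by the red cone opsin gene OPN1LW with SKOR1, and 15.6% ± 0.28, in the cluster led by GNG11. The single E12 photoreceptor-like cluster was led by ARHGAP18, PRLH, INHBB and PRDM1. It shared 2 of these leading genes with the E18 cluster at 24.2% and had 37.2%. A further E12 cluster led by FEZF1, PRDM1 and RBP4, which could not be named, had 20.7% ± 0.25.

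In the other E18 classes the spread over clusters was smaller. The 13 amacrine-like clusters at E18 had 8.11% to 12.3%, with the highest in a cluster led by RPP25 and NHLH1. The 16 bipolar-like clusters had 7.94% to 11.3%. The Muller glia-like cluster led by PSCA, CA14 and GLUL had 15.2% ± 0.24, and the one led by INHBA, VEGFRKDRL and TMEM123 had 19.0% ± 0.22. At E12, 15 amacrine-like clusters had 17.7% to 21.7%. An E12 RGC-like cluster led by the amino acid stress genes PHGDH, CHAC1 and DDIT3 had 25.1% ± 0.44, and the main E12 RGC-like cluster 21.3% ± 0.33.

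Each gene was then tested at E18 against E12, class by class. Of the 72 genes, 70 passed the filter on low counts in each class, and RPL3L was 1 of the 2 that did not. In photoreceptor-like cells 68 of 70 fell and 1 rose at an adjusted p under 0.05 (Benjamini-Hochberg over all genes), with a median log2 change of -1.77. With each cell classed from its own marker counts the median there was -0.74, with 66 lower and 2 higher. Among all 7575 genes tested there, 43.7% were called, 20.1% lower and 23.6% higher. In RGC-like cells 68 fell and 1 rose (median -1.50; of all genes 57.1% called, 28.1% lower and 29% higher). In amacrine-like cells 69 fell and 1 rose (median -1.33; of all genes 75.1% called, 37.7% lower and 37.4% higher). In horizontal cell-like cells 67 fell and 1 rose (median -1.03; of all genes 56.8% called, 28.1% lower and 28.6% higher). In bipolar-like cells 67 fell and 1 rose (median -0.89; of all genes 58.7% called, 28.8% lower and 30% higher). Past 2-fold, 66 of 70 fell in photoreceptor-like, 65 in RGC-like, 58 in amacrine-like, 38 in horizontal cell-like and 25 in bipolar-like cells. In each of these classes except photoreceptor-like, 1 gene rose past 2-fold. Of all genes tested, 799 fell and 1271 rose past 2-fold of 7575 in photoreceptor-like cells, and 790 and 1092 of 10110 in RGC-like cells. In amacrine-like cells they were 901 and 1500 of 12232, and in horizontal cell-like cells 870 and 893 of 8007. In bipolar-like cells 803 fell and 1368 rose of 9933.

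The gene that rose in each of these classes was RPL14, described below. The genes that did not pass were few: RPS19BP1, which encodes the nucleolar binding partner of RPS19, had log2 changes of -0.27 in photoreceptor-like, -0.21 in bipolar-like, -0.12 in horizontal cell-like and 0.00 in RGC-like cells. RPS29 in bipolar-like cells (0.01) and RPS27L in horizontal cell-like cells (-0.10) were the other two. With cells classed one by one from their markers, the median of photoreceptor-like cells was -0.74 in place of -1.77. The composition scaling also matters for the size: without TMM the median of all genes moved by 0.42 in photoreceptor-like cells, 0.21 in amacrine-like, 0.17 in RGC-like and 0.12 in horizontal cell-like cells, and the ribosomal protein genes moved with it.

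**Figure D2:**
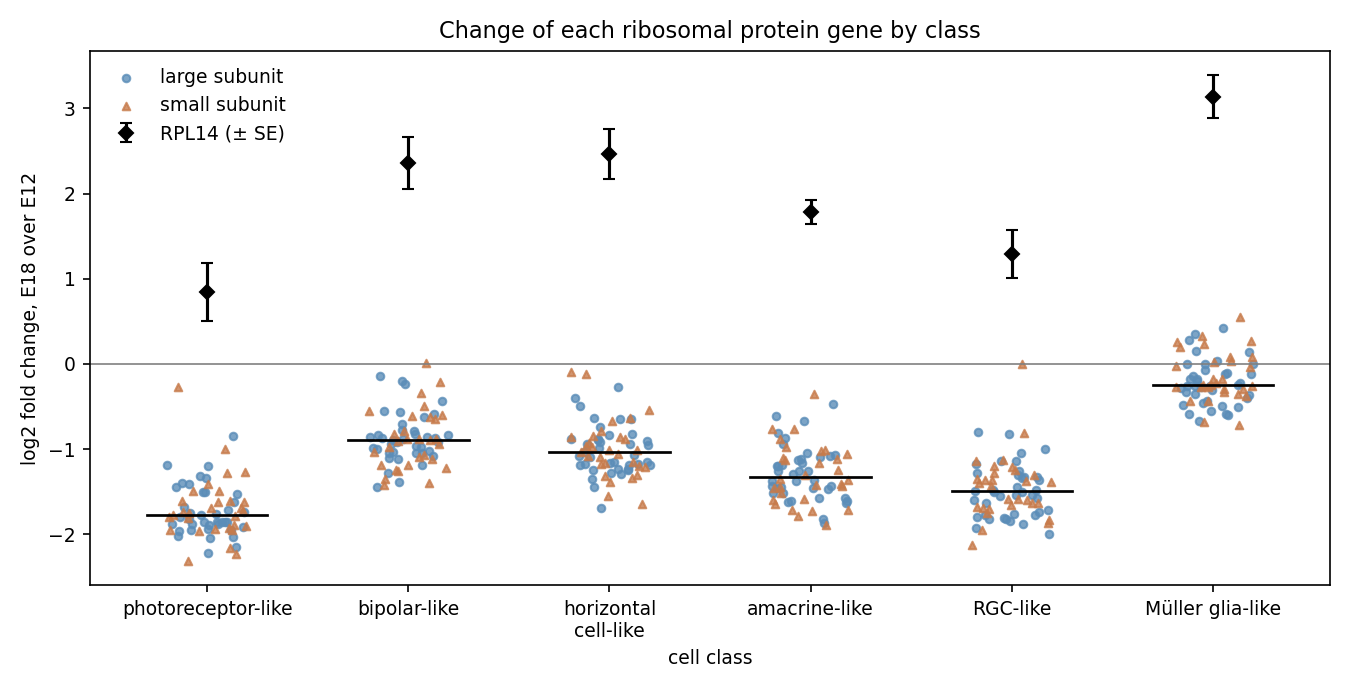
Log2 fold change of each ribosomal protein gene, E18 over E12, in 6 classes (circles: large subunit; triangles: small subunit; line: median; diamond: RPL14 with its standard error). The neuron classes have medians between -0.89 and -1.77, Muller glia-like cells -0.25, and RPL14 lies above 0 in each class.

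RPS15A, RPL27A and RPS10 fell most. RPS15A, a small-subunit protein, had 1919, 1902, 1842 and 1820 CPM in E18 photoreceptor-like cells, against 6974, 6955, 7028 and 6758 CPM in E12 photoreceptor-like cells. The libraries of the stages lay far apart, with a fall of 2.31 ± 0.038 on the log2 scale (± SE, here and below; adjusted p = 5.7e-61, edgeR), or 4.97-fold. In RGC-like cells RPS15A averaged 1069 ± 32.0 CPM at E18 and 4140 ± 109 CPM at E12, and fell by 2.12 ± 0.039. It fell by 1.89 ± 0.019 in amacrine-like and by 1.64 ± 0.044 in horizontal cell-like cells.

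RPL27A, a large-subunit protein, had 902, 898, 918 and 915 CPM in E18 amacrine-like cells, against 2811, 2875, 2888 and 2885 CPM in E12 amacrine-like cells. It fell by 1.87 ± 0.020 there, by 2.00 ± 0.040 in RGC-like, by 1.69 ± 0.044 in horizontal cell-like and by 1.45 ± 0.029 in bipolar-like cells. RPS10, which is mutated in some human families with Diamond-Blackfan anaemia, had 521, 532, 525 and 553 CPM in E18 bipolar-like cells, against 1366, 1332, 1274 and 1405 CPM at E12. Its fall was 1.43 ± 0.036 there and 2.23 ± 0.047 in photoreceptor-like cells. All of these groups were free of overlap.

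RPL38 and RPL3 were among the genes that fell least of those that passed with separate libraries. RPL38, which in the mouse embryo is known for its role in patterning of the axial skeleton, had 1365, 1388, 1432 and 1373 CPM in E18 bipolar-like cells, against 1620, 1506, 1585 and 1455 CPM at E12. The stages stayed apart by a narrow margin, and the log2 change was -0.24 ± 0.033 (adjusted p = 3.4e-07, edgeR). RPL38 changed by -0.27 ± 0.041 in horizontal cell-like, -0.80 ± 0.037 in RGC-like and -0.85 ± 0.043 in photoreceptor-like cells. RPL3, a protein near the peptidyl transferase centre, averaged 1304 ± 22.4 CPM in E18 bipolar-like cells and 1408 ± 15.1 CPM at E12, a change of -0.20 ± 0.030, and changed by -0.46 ± 0.019 in amacrine-like cells.

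RPS27L, a stress-inducible copy of RPS27 in human cells, changed by -0.81 ± 0.084 in RGC-like cells, with 95.3 ± 8.74 CPM at E18 and 149 ± 4.90 CPM at E12.

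The genes thus did not keep strict proportion. A fit with the summed ribosomal protein counts as the library size asked which genes left the common trend. Relative to that total, 24 genes were higher and 32 lower in photoreceptor-like cells, 31 and 28 in RGC-like, 33 and 35 in amacrine-like, 29 and 29 in horizontal cell-like, 22 and 31 in bipolar-like and 23 and 36 in Muller glia-like cells, of 70 each (edgeR, adjusted p under 0.05). Of all genes tested, 94.6% were called in photoreceptor-like cells (92.2% higher, 2.43% lower), 92.9% in RGC-like (91.6% and 1.35%), 95.1% in amacrine-like (92.5% and 2.53%), 86.2% in horizontal cell-like (80.1% and 6.11%), 84.8% in bipolar-like (78.8% and 5.95%) and 65.3% in Muller glia-like cells (40.4% and 24.9%). Without RPL14, the standard deviation of the log2 changes over the genes was between 0.28 and 0.34 in each class. It was 0.28 in Muller glia-like cells, where the median change was -0.25, and 0.34 in photoreceptor-like cells, where the median was -1.77.

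RPL14, a large-subunit protein, went against the rest of the family. It was also among the least abundant, 1 of 5 genes, RPS19BP1, RPS27L and RPL3L included, under 100 CPM on average over the E18 classes. In E18 Muller glia-like cells it had 36.4, 56.4, 46.1 and 44.2 CPM, against 6.23, 7.73, 7.43 and 2.66 CPM in E12 Muller glia-like cells. The groups did not overlap, but with 673027 to 802480 UMIs per E12 library the E12 values rest on few RPL14 UMIs. RPL14 rose by 3.14 ± 0.25 on the log2 scale (adjusted p = 3.0e-16, edgeR), or 8.79-fold. In E18 horizontal cell-like cells it had 48.6, 58.2, 46.1 and 27.6 CPM, against 11.05, 7.39, 4.71 and 6.50 CPM at E12, a log2 change of 2.46 ± 0.29 (adjusted p = 3.0e-11).

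In bipolar-like cells RPL14 had 28.1, 39.3, 29.6 and 26.1 CPM at E18 and 5.10, 5.75, 1.32 and 9.85 CPM at E12 (2.36 ± 0.31, adjusted p = 1.3e-07, edgeR). In amacrine-like cells it had 27.5, 41.6, 29.4 and 35.4 CPM at E18 and 6.09, 10.5, 8.83 and 7.93 CPM at E12 (1.79 ± 0.14, adjusted p = 1.7e-09). Each of these 4 classes thus showed separate stages, with E12 values of at most 11.05 CPM. The E12 libraries held 633692 to 769675 UMIs in horizontal cell-like and 759792 to 869837 UMIs in bipolar-like cells. Their E12 values of RPL14 thus rest on few UMIs, as in Muller glia-like cells. In RGC-like cells RPL14 had 23.4, 47.4, 16.5 and 23.0 CPM at E18 and 5.02, 14.0, 14.0 and 7.24 CPM at E12, where the lowest E18 library stood only just above the highest E12 libraries (1.29 ± 0.28, adjusted p = 0.00014). In cells of 1500 to 3000 UMIs the RGC-like change was 0.45 with an adjusted p of 0.83.

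Photoreceptor-like cells showed the smallest rise of RPL14, with 41.6, 56.3, 51.2 and 51.9 CPM at E18 and 5.01, 26.9, 28.0 and 23.4 CPM at E12 (0.84 ± 0.34, adjusted p = 0.035, edgeR). This E12 mean rests on 17 UMIs in all. Without E12 replicate 1 the change was 0.54 (adjusted p = 0.24), without E12 replicate 4 it was 0.93 (adjusted p = 0.055), with DESeq2 0.85 (adjusted p = 0.062), and in cells without a UMI of the W-linked gene HINTW it was 0.56 (adjusted p = 0.28).

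**Figure D3:**
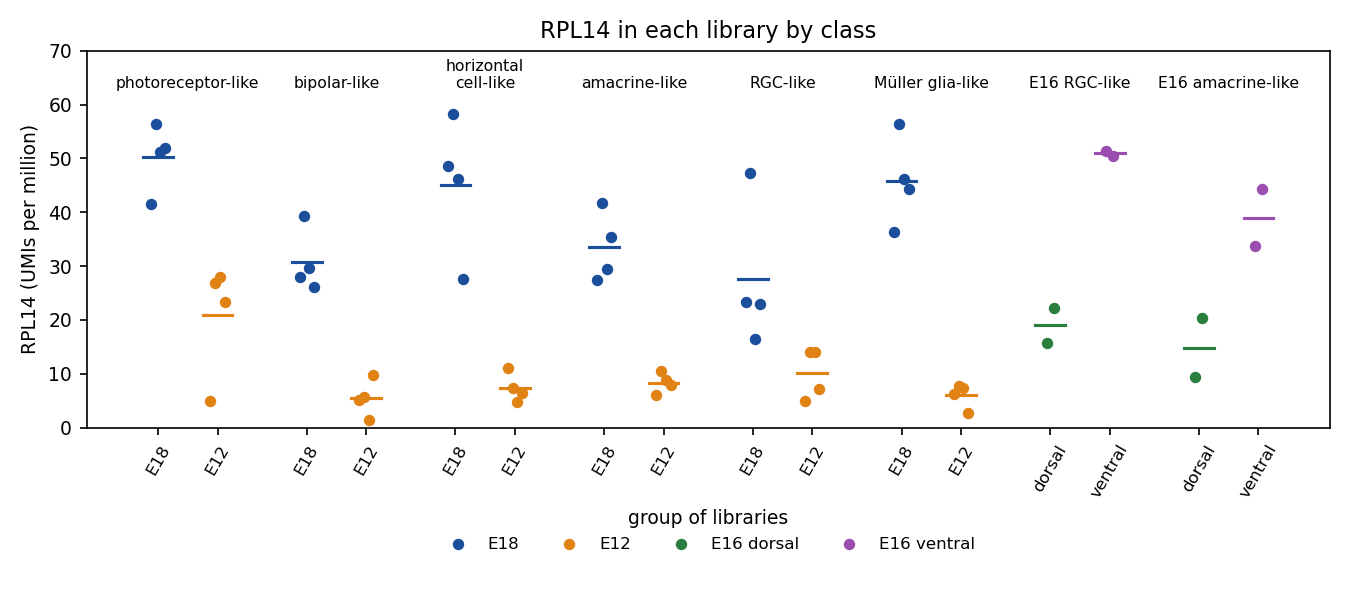
RPL14 in CPM in each library (points) with the group mean (bars), for 6 classes at E18 and E12 and for 2 classes of the E16 dorsal and ventral libraries. E18 values lie between 16.5 and 58.2, E12 values between 1.32 and 28.0, and E16 ventral RGC-like values (51.4 and 50.5) above the dorsal ones (15.8 and 22.2).

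RPL14 also differed between libraries of 1 stage by more than counting error. Over all cells of a library it had 32.2, 47.2, 35.8 and 35.6 CPM at E18, and E18 replicate 2 was the highest library in 6 of 6 classes. The coefficient of variation over the E18 libraries was 17.3%, against 4.16% from counting alone and a median of 1.13% over the ribosomal protein genes. At E12 the coefficient was 28.4% for RPL14, the highest of all. It was 7.07% for RPS24, where the median was 1.59%. RPS24 was also among the genes that differed most between the dorsal E16 libraries, with 921 and 808 CPM.

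In Muller glia-like cells the family moved less and in both directions. Of 70 genes, 48 fell and 14 rose, with a median log2 change of -0.25. Of all genes 65.2% were called, 31.7% lower and 33.5% higher. The direction of many depended on the scaling: without TMM, 58 fell and 5 rose (median -0.46). Of the 14 genes that rose, 5 did so under both scalings, RPL14, RPS29, RPL21 and RPS24 among them. Without TMM 3 of the 14 fell, RPL37A and RPS25 included, and 6 were not called. The median of all genes lay 0.22 lower without TMM in this class.

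RPS29, a small zinc-binding protein of the small subunit, had 6365, 6240, 6274 and 6287 CPM in E18 Muller glia-like cells, against 5549, 4804, 4814 and 4709 CPM in E12 Muller glia-like cells. It rose by 0.56 ± 0.032 on the log2 scale (adjusted p = 1.3e-22, edgeR). RPL21, of the large subunit, had 3905, 3836, 3784 and 3784 CPM at E18, against 3561, 3277, 3257 and 3153 CPM at E12 (0.43 ± 0.031). In both genes E12 replicate 1 was the highest E12 library and still lay below every E18 library. RPSA, which is also known as a laminin-binding protein, went the other way with 1114, 1109, 1038 and 1075 CPM at E18, against 2041, 2087, 1998 and 2182 CPM at E12 (-0.72 ± 0.036). RPS2, at the entry of the messenger RNA channel, averaged 1223 ± 92.8 CPM at E18 and 2288 ± 82.8 CPM at E12 (-0.68 ± 0.040).

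Whether the glial change differed from the neuronal one was tested directly, in a comparison chosen after the values were seen. The stage change of Muller glia-like cells minus the mean stage change of the 5 neuron classes, with the library as a block, was above 0 for 69 of 71 genes called (median 1.10, edgeR; of all genes 42.3% called, 21.2% higher and 21.1% lower). The difference was 1.32 for RPS29, 1.298 for RPL21, 0.65 for RPS2 and 0.38 for RPSA. For RPL14 it was 1.396, so this gene too rose more in the glia. The sizes of these differences, all with TMM, depend on the scaling. Without TMM the changes of the family moved by -0.22 in Muller glia-like cells and by 0.09 to 0.42 in the neuron classes. The median change was then -0.46 in Muller glia-like cells and from -1.35 to -0.80 in the neuron classes, a narrower gap. Vascular markers summed to 144 to 205 CPM in E18 and 44.9 to 68.3 CPM in E12 Muller glia-like cells, and their part in the result was not tested. Haemoglobin genes summed to at most 1.97 CPM in the E18 libraries of this class.

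Other genes of the translation machinery were examined for context. Of the elongation factors, EEF1A1, which brings aminoacyl-tRNA to the ribosome, had 1819 CPM in E18 photoreceptor-like cells and 6081 CPM at E12, and fell by 2.17. EEF1A2, its copy known from mammalian neurons and muscle, rose by 1.17 in the same cells, with 853 CPM at E18 and 284 CPM at E12. Of 7 genes of the elongation factor list tested there, 5 fell and 2 rose (median -1.61), where 20.1% of all genes fell and 23.6% rose. Of 8 in RGC-like cells 5 fell and 1 rose (median -0.75), where 28.1% of all genes fell and 29% rose. The list of 8 also held EEF1AKMT1, a methyltransferase gene named for its target, which did not pass the test in RGC-like cells (0.45 ± 0.22, adjusted p = 0.089, edgeR). In Muller glia-like cells 4 fell and 3 rose (median -0.09), where 31.7% of all genes fell and 33.5% rose. EEF1G rose in each of these 3 classes, by 1.22 in photoreceptor-like, 1.405 in RGC-like and 1.19 in Muller glia-like cells. Horizontal cell-like cells were mixed too: EEF1A1, EEF1B2, EEF1D and EEF2 fell, while EEF1A2, EEF1G, EEF1E1 and EEF1AKMT1 rose. Of all genes there, 28.1% fell and 28.6% rose. EEF1A2 also rose in bipolar-like cells (1.82). It fell in RGC-like (-0.48), amacrine-like (-0.13) and Muller glia-like cells (-0.91).

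Of 10 other genes with a terminal oligopyrimidine tract, 9 fell and 1 rose in photoreceptor-like cells. Of the same 10, 9 fell in amacrine-like and 8 in RGC-like cells, while 3 fell and 4 rose in Muller glia-like cells. Of all genes, 20.1% fell and 23.6% rose in photoreceptor-like cells, and 31.7% and 33.5% in Muller glia-like cells. In amacrine-like cells 37.7% of all genes fell, and in RGC-like cells 28.1%. The other neuron classes were less uniform. In horizontal cell-like cells PABPC1 (0.22), BTF3 (0.53) and VIM rose, NACA was not called and the rest of the 10 fell. In bipolar-like cells PABPC1, NAP1L1, NACA and VIM were not called and the rest fell. Of all genes, 28.1% fell and 28.6% rose in horizontal cell-like cells, and 28.8% and 30% in bipolar-like cells. RACK1, a scaffold on the small subunit, fell by 1.86 in photoreceptor-like, 1.24 in amacrine-like, 1.32 in RGC-like and 0.36 in Muller glia-like cells. VIM, an intermediate filament gene that is itself a marker of Muller glia, led the rises in Muller glia-like cells with 2.21. This rise was not particular to the glia, since VIM rose by 3.63 in horizontal cell-like and by 1.16 in photoreceptor-like cells. It fell by 0.89 in RGC-like cells and was not called in amacrine-like and bipolar-like cells. Of ribosome biogenesis genes, 13 of 22 fell and 0 rose in photoreceptor-like cells, where 20.1% of all genes fell. In amacrine-like cells 17 of 24 fell and 4 rose (of all genes 37.7% fell), and in horizontal cell-like cells 10 of 23 fell and 2 rose (28.1%). In RGC-like cells 16 of 23 fell and 1 rose (28.1%), and in Muller glia-like cells 17 of 23 fell and 1 rose (31.7%). The nucleolar gene NCL fell by 1.17 in Muller glia-like cells, with 275 CPM at E18 and 717 CPM at E12, where the median of the ribosomal protein genes was -0.25.

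The genes of the mitochondrial ribosome were counted in the same way. In RGC-like cells 16 of 74 rose and 13 fell (median -0.01), where 29% of all genes rose and 28.1% fell. In amacrine-like cells 16 rose and 36 fell (median -0.10), where 37.4% of all genes rose and 37.7% fell. In Muller glia-like cells 3 rose and 41 fell (median -0.28), where 33.5% of all genes rose and 31.7% fell. In photoreceptor-like cells 3 of 72 rose and 27 fell (median -0.31), where 23.6% of all genes rose and 20.1% fell. Dissociation and stress genes differed between the stages in both directions. Of 9 tested, 7 rose and 1 fell in amacrine-like cells (of all genes 37.4% rose and 37.7% fell). In RGC-like cells 6 rose and 3 fell (29% and 28.1%), and in Muller glia-like cells 5 rose and 3 fell (33.5% and 31.7%). FOS, an immediate early gene, had 2153 CPM at E18 and 193 CPM at E12 in Muller glia-like cells, while the chaperone gene HSP90AA1 had 282 CPM at E18 and 619 CPM at E12 and fell by 0.91. The part of dissociation in the stage differences was not tested.

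Within 1 stage the classes used the family in different proportions, which is given as values without a test. The 5 most abundant genes at E18, RPS29, RPLP1, RPS19 and RPL37 among them, made up 14.8% of all ribosomal protein UMIs. The median gene had 1533 CPM over the E18 classes, with 62 of 72 genes over 1000 CPM. In E18 RGC-like cells RPS29 took 6.46% ± 0.14 of the ribosomal protein UMIs, against a mean of 4.33% in the other 5 classes. At E12 the same gene took 5.001% ± 0.23 there, against 2.84%. In E18 photoreceptor-like cells RPLP1, an acidic protein of the ribosomal stalk, took 4.96% ± 0.055, against 3.44%, and at E12 6.15% ± 0.17, against 3.38%. RPS28 took 1.46% ± 0.022 in E18 photoreceptor-like cells, against 0.963%.

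Muller glia-like cells stood out for RPS13, with 1.26% ± 0.033 of the E18 ribosomal protein UMIs against 0.731% in the other classes, and for RPS10, with 0.917% ± 0.013 against 0.589%. Amacrine-like cells had 1.48% ± 0.019 in RPL3, against 0.999%, and bipolar-like cells 2.11% ± 0.021 in RPL4, against 1.41%, and 1.55% ± 0.020 in RPL9, against 1.12%. Horizontal cell-like cells had 2.39% ± 0.028 in RPS21, against 1.70%, and 2.12% ± 0.020 in RPL38, against 1.57%. In each of these cases all 4 libraries of the class lay above every library of the other classes at E18. At E12 this held for RPS29, RPLP1, RPS13, RPS10, RPL4 and RPS21, but not for RPL3, RPL9, RPL38 and RPS28. RPL3 took 0.832% ± 0.012 in E12 amacrine-like cells, against 0.813% in the other classes. RPS27L in RGC-like cells (0.111% against 0.0768%) and RPS19BP1 in amacrine-like cells (0.0587% against 0.0350%) did not separate in this way.

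RPL3L, a copy of RPL3 that mammals use in heart and skeletal muscle, was nearly silent with 1 exception. It had 9.68 to 13.6 CPM in the E18 photoreceptor-like libraries (62 UMIs), and means between 0.0842 and 3.05 CPM in the other 5 E18 classes with an E12 counterpart. E12 photoreceptor-like cells had 1 UMI of it.

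At E16 the dorsal and ventral RGC-enriched libraries differed little in the share. RGC-like cells had 13.8% and 14.3% in the dorsal libraries, against 14.5% and 14.2% in the ventral libraries, and the groups overlapped. Amacrine-like cells that came through the enrichment had 10.4% and 11.3% in the dorsal libraries, against 12.1% and 11.8% in the ventral libraries. The median depth of RGC-like cells was 1734.5 and 1948.5 UMIs per cell in dorsal libraries, against 4272.5 and 4287 UMIs in ventral libraries. Both regions lay between the E12 and E18 RGC-like shares of 21.8% and 8.61%.

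The near equality over all RGC-like cells did not hold at matched depth. Among cells of 1500 to 2000 UMIs the share was 13.9% in dorsal and 10.9% in ventral cells, and among cells of 3000 to 5000 UMIs it was 14.4% and 14.5%. Ventral cells had a higher share at each greater depth, while dorsal cells stayed between 13.3% and 14.6%. Within cell clusters the direction was the opposite: the dorsal share was lower in 16 of 16 RGC-like clusters with enough cells, by 0.34 to 2.27 points (median 0.94). Shares over 29 ventral RGC-like clusters ran from 10.6% to 19.4%, so the mix of RGC types, depth and region cannot be told apart in the share over all cells.

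**Figure D4:**
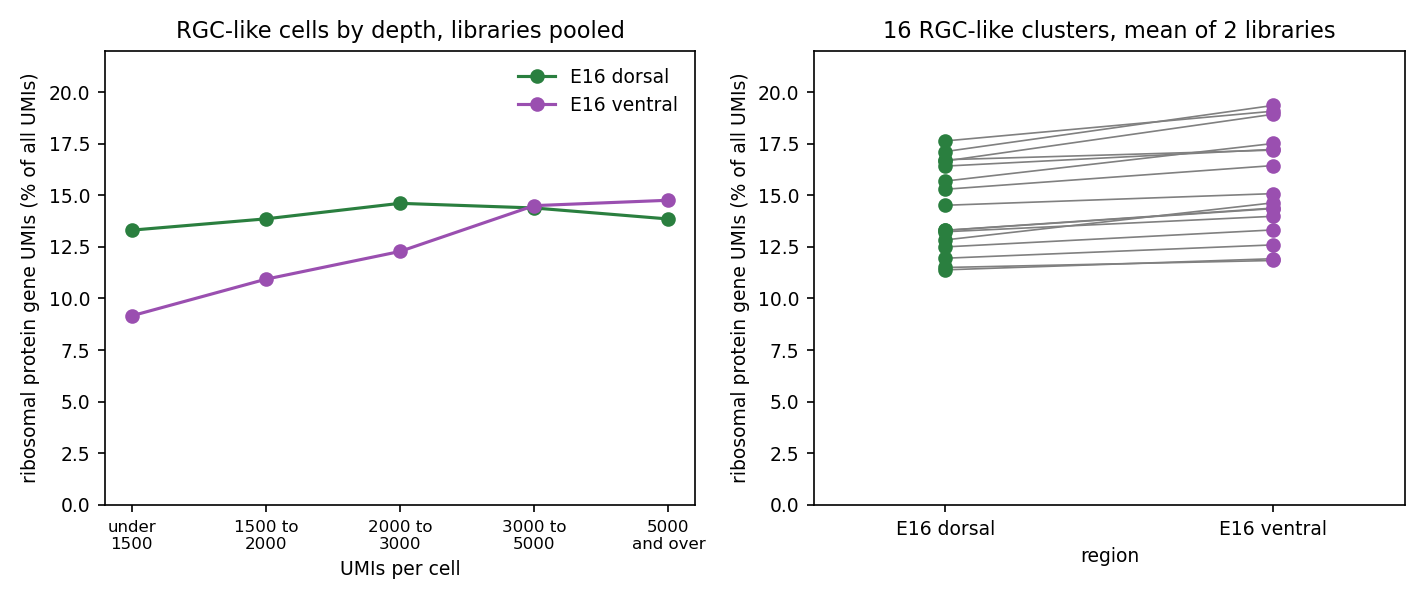
Share of UMIs on ribosomal protein genes, in percent, in E16 RGC-like cells: by depth per cell with the libraries of a region pooled (left), and for each of 16 clusters as the mean of 2 libraries joined by a line (right). Below 3000 UMIs per cell the dorsal share is higher (14.6% against 12.3% at 2000 to 3000 UMIs), and within each cluster it is lower.

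Of 71 genes tested in E16 RGC-like cells, 19 were lower and 3 higher in the dorsal libraries, with a median log2 difference of -0.06 (edgeR). Of all genes 14.8% were called, 7.27% lower and 7.54% higher. RPL14 differed most, with 15.8 and 22.2 CPM in the dorsal libraries, against 51.4 and 50.5 CPM in the ventral libraries (-1.37 ± 0.15, adjusted p = 5.4e-08). RPS24 had 943 and 831 CPM in dorsal libraries, against 1187 and 1210 CPM in ventral libraries (-0.45 ± 0.048). Both genes also had a wide spread between E12 libraries, as given above. Higher in the dorsal libraries were RPLP1 (6002 and 6403 CPM, against 5582 and 5482 CPM in the ventral libraries, 0.16 ± 0.038), RPS29 (0.12 ± 0.035) and RPL32 (0.12 ± 0.038). With 1 library left out, the difference ran from 0.12 to 0.21 for RPLP1, from 0.11 to 0.13 for RPS29 and from 0.08 to 0.16 for RPL32. Such a fit leaves 1 library in a region, so these ranges give the size only and do not show that the calls hold.

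These calls depended on the cells used. In RGC-like cells of 1500 to 3000 UMIs, 57 genes were higher and 1 lower in the dorsal libraries, and the RPL14 difference was -0.74 (adjusted p = 0.067). Calls numbered 4 in cells of at least 3000 UMIs and 4 in cells without a HINTW UMI, all lower in the dorsal libraries, and 10 without ventral replicate 1.

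In E16 amacrine-like cells 9 of 70 genes were lower and 0 higher in the dorsal libraries (of all genes 4.7% called, 2.02% lower and 2.67% higher). RPS24 had 590 and 525 CPM in dorsal libraries, against 927 and 894 CPM in ventral libraries (-0.76 ± 0.13, adjusted p = 1.4e-05, edgeR). RPS10 had 459 and 494 CPM in dorsal libraries, against 756 and 721 CPM in ventral libraries (-0.65 ± 0.13), and RPS26 had 646 and 1019 CPM, against 1241 and 1242 CPM (-0.54 ± 0.12). RPL14 had 9.36 and 20.4 CPM in dorsal libraries, against 33.8 and 44.2 CPM in ventral libraries, which did not pass the test (-1.25 ± 0.61, adjusted p = 0.28). RPSA had 1170 and 1254 CPM in dorsal libraries, against 1566 and 1539 CPM in ventral libraries (-0.38 ± 0.10, adjusted p = 0.013), and in RGC-like cells it was at -0.01 ± 0.045. The difference between the classes, RGC-like minus amacrine-like, passed the test for 1 gene, RPSA (0.39, adjusted p = 0.035), where 1.57% of all genes were called, 0.789% higher and 0.779% lower. DESeq2 called 1 gene, and cells of 1500 to 3000 UMIs gave 0 calls.

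Female and male cells were compared within libraries. Female birds carry a single Z chromosome and a W, and males a pair of Z chromosomes, and dosage compensation of Z in birds is known to be incomplete. Of the ribosomal protein genes, RPL17, RPL37, RPS6 and RPS23 lie on Z and 0 on W, as read by symbol in the RefSeq table of assembly GRCg7b, in which 67 of the 72 genes matched by symbol and 3 by synonym. Cells of at least 2000 UMIs were split by HINTW, a W-linked gene, into female-like cells with at least 3 UMIs of it and male-like cells with 0. Both kinds were present in each E16 and E12 library, and 0 of 513 E18 RGC-like and 0 of 5224 E18 amacrine-like cells had a HINTW UMI, so no E18 cell of these classes was called female-like. The sex of the embryos and the detection of HINTW cannot be told apart in this absence. If the split follows sex, female-like and male-like cells of a library stem from different embryos, whose number is not labelled. Sex then cannot be told apart from other differences between those embryos, and p-values describe the spread over libraries, not over embryos.

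In E16 RGC-like cells RPS23, which lies at the decoding centre, had 1584, 1720, 1794 and 1773 CPM in female-like cells, against 3059, 3255, 3284 and 3312 CPM in male-like cells of the same 4 libraries. Every library showed the difference, -0.91 ± 0.025 on the log2 scale (adjusted p = 5.7e-278, edgeR), a ratio of 0.533. RPL17, at the exit of the peptide tunnel, had 1305, 1439, 1362 and 1350 CPM in female-like and 2467, 2609, 2511 and 2437 CPM in male-like cells (-0.88 ± 0.026). RPS6, the target of the S6 kinases, had 1183, 1276, 1255 and 1232 CPM in female-like and 2157, 2273, 2295 and 2232 CPM in male-like cells (-0.87 ± 0.027). The female-like and male-like libraries lay far apart for these 3 genes. RPL37 differed less, with 2965, 3229, 2994 and 2968 CPM in female-like and 3880, 4408, 3999 and 3903 CPM in male-like cells (-0.42 ± 0.024).

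Of the 71 genes tested, 13 were lower and 2 higher in female-like cells, where 7.97% of all genes were called (4.78% lower, 3.2% higher), and the median of the genes outside Z was -0.03. Outside Z, RPL38 was higher with 2282, 2338, 2425 and 2380 CPM in female-like and 1783, 1836, 1954 and 1910 CPM in male-like cells (0.31 ± 0.026). RPS7 was lower with 871, 891, 980 and 964 CPM in female-like and 1127, 1168, 1133 and 1105 CPM in male-like cells (-0.25 ± 0.030). For both, the female-like and male-like libraries did not overlap. RPL14 showed -0.06 ± 0.094 (adjusted p = 0.83), with 16.02, 15.4, 50.6 and 51.2 CPM in female-like cells and 24.1, 32.8, 51.9 and 50.3 CPM in male-like cells, dorsal libraries first. Without ventral replicate 1 or ventral replicate 2, 6 genes were called in each case.

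**Figure D5:**
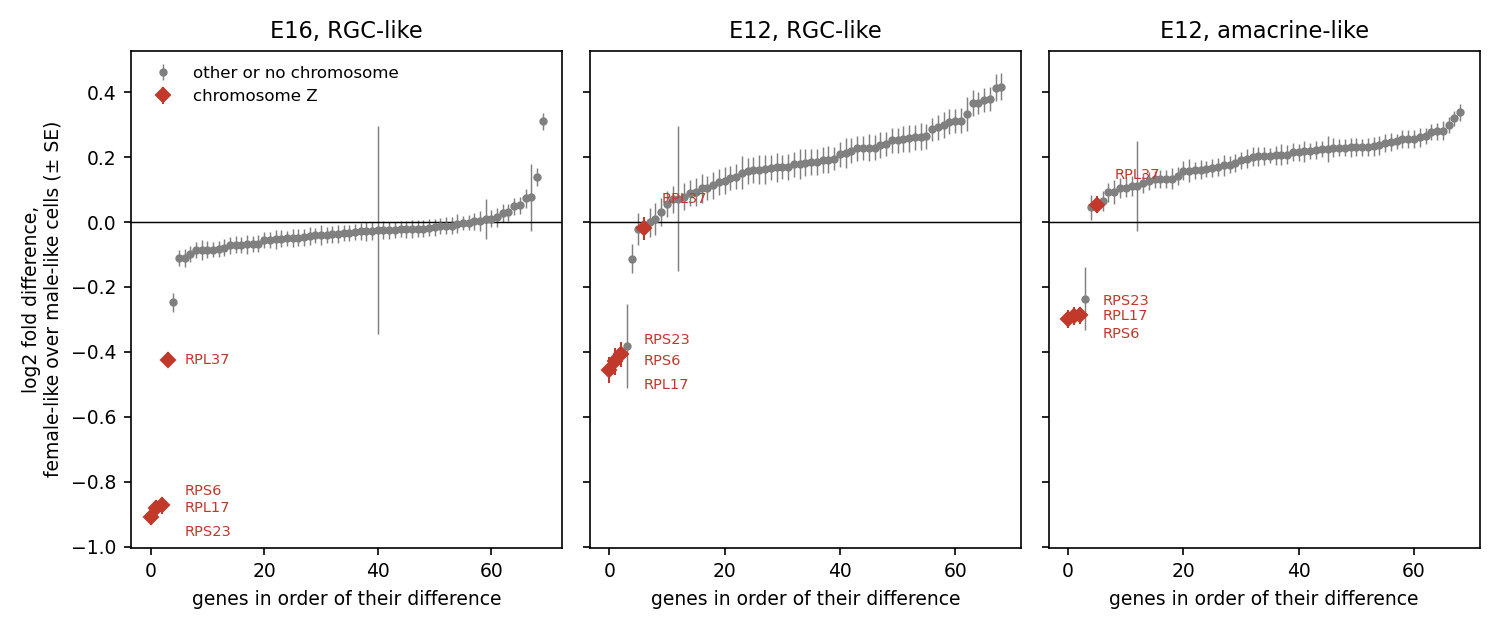
Log2 fold difference of each ribosomal protein gene, female-like over male-like cells (points with standard errors, ordered by difference; red diamonds lie on chromosome Z; RPL14, whose error is wide, is left out). RPS23, RPL17 and RPS6 lie lowest in each panel, near -0.9 at E16, and most other genes lie above 0 at E12, in RGC-like cells with the cluster led by PHGDH, CHAC1 and DDIT3 included.

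At E12 RPL17, RPS6 and RPS23 were lower in female-like cells, by less. RPL17 in RGC-like cells had 2785, 3083, 3489 and 3269 CPM in female-like and 4268, 4306, 4305 and 4537 CPM in male-like cells (-0.46 ± 0.040, adjusted p = 4.0e-28, edgeR). RPS6 (-0.43 ± 0.042) and RPS23 (-0.41 ± 0.038) were lower in 4 of 4 libraries too, and RPL37 was at -0.02 ± 0.036 (adjusted p = 0.82). In total 51 of 70 genes were higher and 4 lower (of all genes 11.3% called, 5.63% higher and 5.68% lower), with RPS28 (0.42 ± 0.041) and RPSA (0.41 ± 0.042) highest. The share of ribosomal protein UMIs was 24.3%, 24.0%, 24.4% and 24.4% in female-like and 21.2%, 21.6%, 21.7% and 21.8% in male-like E12 RGC-like cells.

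The makeup of the E12 RGC-like class moved with these higher values. The cluster led by PHGDH, CHAC1 and DDIT3 held 270 of 443 female-like cells (60.9%) and 66 of 3724 male-like cells (1.77%). DDIT3, a gene of the stress response, had 1376 CPM in female-like and 222 CPM in male-like cells (2.62 ± 0.062), and ATF3, of the same response, was at 3.53 ± 0.31. Without this cluster, an alternative added after the data were seen, 0 genes were higher and 8 lower in female-like cells, with a median of -0.10 (of all genes 0.773% called, 0.191% higher and 0.582% lower). RPS28 was then at -0.04 and RPSA at -0.02, while RPL17 (-0.39), RPS6 (-0.35) and RPS23 (-0.29) stayed lower and RPL37 passed the test (-0.19, adjusted p = 0.034, edgeR). The share was then 20.7%, 21.6%, 21.7% and 22.1% in female-like and 21.2%, 21.6%, 21.7% and 21.7% in male-like cells, so that the groups overlapped. Inside the cluster the share was 25.6%, 25.9%, 27.0% and 26.2% in female-like and 24.5%, 23.7%, 22.9% and 24.0% in male-like cells. These groups did not overlap, but the male-like cells there numbered only 13 to 20 per library.

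In E12 amacrine-like cells RPS6 had 2426, 2427, 2535 and 2595 CPM in female-like and 3122, 3157, 3154 and 3168 CPM in male-like cells (-0.30 ± 0.028, adjusted p = 7.5e-24, edgeR). RPL17 and RPS23 were at -0.29 each, and RPL37 was at 0.05 ± 0.025 (adjusted p = 0.26). Here 60 of 70 genes were higher and 3 lower in female-like cells (of all genes 5.23% called, 2.89% higher and 2.35% lower), led by RPS21 (0.34 ± 0.026) and RPS29 (0.32 ± 0.023). The share of ribosomal protein UMIs was higher in female-like cells in 14 of 15 amacrine-like clusters with at least 20 cells of each kind, and the difference ran from -0.13 to 3.44 points (median 2.14, female-like minus male-like, libraries pooled). DDIT3 was at 0.31 ± 0.096 in this class, with 138 CPM in female-like and 114 CPM in male-like cells. Relative to the summed ribosomal protein counts, RPL17, RPS6 and RPS23 were lower by 0.63, 0.60 and 0.58 in RGC-like cells, all clusters included, and by 0.47, 0.48 and 0.47 in amacrine-like cells.

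A smaller part of the RGC-like cells was called female-like at E12 than at E16. Of E12 RGC-like cells, 78.1% had 0, 12.6% had 1 or 2 and 9.29% had at least 3 HINTW UMIs, against 29.9%, 11.8% and 58.3% of dorsal E16 RGC-like cells and 40.04%, 19.2% and 40.8% of ventral ones. The share of cells called female-like thus differed between stages and between E16 regions, and its part in those comparisons was not tested beyond the cells without a HINTW UMI. In the stage comparison the 4 genes on Z had median changes of -1.71 in photoreceptor-like and -1.73 in RGC-like cells, beside -1.78 and -1.49 for the other genes.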

How the data were processed

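The authors deposited unnormalized UMI counts, 1 per gene and barcode. Reads were processed with Cell Ranger 2.1.0 and genome build GRCg6a, per the submitters' processing notes. The ribosomal protein genes, gene lists and naming of clusters were chosen with earlier results of these data known.

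Barcodes with over 5% haemoglobin UMIs and simulated-doublet neighbours (0.8% per 1000 barcodes) were set aside. Cells of each stage were clustered (2000 variable genes without the ribosomal protein genes, 40 components, 20 neighbours, Leiden resolution 1), and clusters were named from at least 3 markers with a margin of 0.2 on the log2 scale. Counts were summed per library and class and tested with edgeR 4.0.16 (filterByExpr, TMM, quasi-likelihood, Benjamini-Hochberg over all genes, threshold 0.05). Standard errors are the absolute log2 change over the square root of F. The regions, stages and sexes were compared within a class; the sexes with the library as a block. CPM values use the summed UMIs without TMM, and intervals from counting cover counting error only. Classes of different comparisons come from the same libraries.

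Named were RPL14; per class, up to 2 genes (regions: 3) with the largest called changes above and below the median, at 50 CPM or more and with no overlap of libraries; the 5 most abundant genes; all genes on Z and up to 2 others for sex; and up to 2 per class for class proportions. Some genes that meet these rules are not reported here. On simulated data, 98% of genes changed by 1 on the log2 scale were recovered in the amacrine-like stage comparison (12100 genes) and 85% in the RGC-like comparison of regions (11924 genes). Alternatives were DESeq2 1.42.0, library totals, no filter, other cell filters, other class assignments and leaving out each library. The software was Python 3.11.15, scikit-learn 1.9.0, leidenalg 0.10.2 and R 4.3.3.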

Additional observations from a re-analysis of the deposited data

Results flagged for a closer look

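Among 98 groups of 4 libraries examined, 5 held a library far from the other three by Dixon's criterion at 95%, where chance gives about 1 in 20. In E12 amacrine-like cells RPL27A had 2811 CPM in replicate 1, against 2875 to 2888 CPM in the other libraries. In E12 Muller glia-like cells RPS29 had 5549 CPM in replicate 1, against 4709 to 4814 CPM, and RPS2 had 2165 CPM in replicate 1, against 2314 to 2337 CPM. In male-like E12 amacrine-like cells RPS29 had 7028 CPM in replicate 1, against 6323 to 6424 CPM. In male-like E12 RGC-like cells RPL17 had 4537 CPM in replicate 4, against 4268 to 4306 CPM. E12 replicate 1 was the library that stood apart in 4 of these 5 groups.

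The dorsal-ventral difference of RPSA, on the log2 scale, was -0.01 in RGC-like and -0.38 in amacrine-like cells, and the difference between them passed the test (0.39, adjusted p = 0.035, edgeR). RPSA was 1 of 71 genes tested (1.41%), where 1.57% of all genes were called, so the family had no more calls than genes at large. With TMM scaling, the stage change differed between Muller glia-like cells and the mean of 5 neuron classes for 69 genes. In Muller glia-like cells 11 genes rose that fell in each of 5 neuron classes, and for 3 of them, RPL21 and RPS25 included, the libraries of the stages did not overlap in the glia. RPS25 fell in Muller glia-like cells without TMM, so its sign depends on the scaling.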

How the results depend on the processing

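The number of genes called between stages stayed within 1.5 times under every alternative run, but without TMM the split in Muller glia-like cells was 58 lower and 5 higher, against 48 and 14. Leaving out 1 library gave 68 to 70 called genes in photoreceptor-like, 67 to 68 in bipolar-like, 68 in horizontal cell-like, 70 to 72 in amacrine-like, 69 in RGC-like and 60 to 62 in Muller glia-like cells. Replicate numbers did not pair the libraries (correlation of same-numbered libraries from -0.03 to 0.04); the replicate block gave 69 calls in photoreceptor-like, 61 in Muller glia-like and, between E16 regions, 18 in RGC-like cells.

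Calls between E16 regions in RGC-like cells numbered 22, and 58 at 1500 to 3000 UMIs, 4 without a HINTW UMI, 4 at 3000 UMIs or more (chosen after seeing the data) and 10 to 16 with 1 library left out. In amacrine-like cells 9 calls became 17 without a filter, 1 with DESeq2, 1 at 1000 genes or more, 0 at 1500 to 3000 UMIs, 0 without a HINTW UMI and 3 to 14 with 1 library left out. RPS29 turned to -0.0325 in RGC-like cells at 3000 UMIs or more. Sex calls in E12 RGC-like cells numbered 55, 36 without a filter and 8 without the cluster led by PHGDH, CHAC1 and DDIT3 (chosen after seeing the data), where RPS28 turned to -0.0404 and RPSA to -0.0246; in E16 RGC-like cells 15 became 6 with DESeq2, 6 with no replicate block and 6 to 21 with 1 library left out. The cause was not tested.

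Stage differences of the share, E18 minus E12 in points, were -19.6 at 1000 genes or more and -20.9 at 1500 to 3000 UMIs in photoreceptor-like, -5.76 and -6.25 in bipolar-like, -9.57 and -9.999 in horizontal cell-like, -9.67 and -9.64 in amacrine-like and -3.90 and -2.97 in Muller glia-like cells, and -15.3 at 1500 to 3000 UMIs in RGC-like cells. With each cell classed on its own (chosen after seeing the data) they were -8.25 in photoreceptor-like, -9.39 in bipolar-like, -9.16 in horizontal cell-like, -10.2 in amacrine-like, -12.5 in RGC-like and -5.70 in Muller glia-like cells. Keeping doublets gave -10.2 in horizontal cell-like, -10.2 in amacrine-like and -12.7 in RGC-like cells. Cells without a HINTW UMI gave -10.1 in amacrine-like, -12.8 in RGC-like and -4.62 in Muller glia-like cells. Clusters made with the ribosomal protein genes gave -10.1 in amacrine-like cells. Leaving out RPL14 and the most abundant gene gave -10.2 in amacrine-like and -12.6 in RGC-like cells. At 1500 to 3000 UMIs the dorsal minus ventral share was 2.29 in RGC-like and -0.19 in amacrine-like cells. With 1 library left out the stage differences were -22.1 to -21.8, -6.73 to -6.60, -10.9 to -10.6, -10.5 to -10.4, -13.3 to -13.1 and -5.02 to -4.84 in photoreceptor-like, bipolar-like, horizontal cell-like, amacrine-like, RGC-like and Muller glia-like cells. Between regions they were -0.50 to -0.01 in RGC-like and -1.50 to -0.61 in amacrine-like cells.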
